A study of Mus musculus with 4 samples.

Results

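The genes described here are 10 feedback targets and nuclear factors of canonical Wnt signaling, namely *Axin2*, *Nkd1*, *Notum*, *Sp5*, *Apcdd1*, *Ctnnb1*, *Tcf7*, *Tcf7l1*, *Tcf7l2* and *Lef1*. They were chosen by name, and every gene probe to which the array files give one of these names was taken. This yielded 21 of 41174 probes, and 10 of 27068 gene names. The arrays were Agilent 2-color whole-genome arrays for mouse, on which RNA from one source is labeled with Cy3 and RNA from another with Cy5 and both are hybridized to the same 60-base probes. All mice were C57BL/6 males aged 6 to 8 weeks that had received tamoxifen (4 mg per 25 g body weight in 200 µl corn oil), as 1 dose or on 3 days in a row, which the labels leave unspecified for each mouse. In the first experiment, *Rspo3* KO mice (Myh11CreErt2/Rspo3 fl/fl) were compared with control mice (Rspo3++ in the labels, littermates that also carry Myh11CreErt2) by hybridizing their colon RNA, taken 2 weeks after tamoxifen, with 1 mouse per channel. The 2 arrays hold 2 separate pairs of mice with reversed dyes, hence n = 2 pairs. In the second, Axin2CreErt2/Rosa26-tdTomato colon epithelial cells were sorted 24 h after tamoxifen into tdTomato-positive (Axin2+) and tdTomato-negative (Axin2-) cells and pooled from 3 mice. Both of these arrays hold the same pair of pools with reversed dyes, so they count as 1 replicate and differences between the pools have no replicate check and no test. The Myh11 promoter restricts the deletion to myofibroblasts and smooth muscle, so epithelial cells of *Rspo3* KO mice keep the gene. The labels name distal colon for these arrays, while the published methods name colon in one place and colon epithelium in another. Markers of fibroblasts (6 of 6) and smooth muscle (5 of 6) were measured on them. In such RNA, fewer cells of a type and less RNA per cell cannot be told apart.

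In canonical Wnt signaling, a Wnt ligand bound to Frizzled and Lrp receptors stops a cytoplasmic destruction complex from degrading beta-catenin, which then enters the nucleus and activates genes together with DNA-binding proteins of the Tcf/Lef family. R-spondins such as Rspo3 strengthen this signal by binding Lgr receptors and keeping Frizzled at the cell surface. Several of the genes switched on in this way encode inhibitors of the pathway, so that the signal limits itself, and in the colon the signal is known to be strongest at the crypt base, where the stem cells lie.

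Between 53.1% and 60.3% of gene spots per channel were well above background. *Rspo3* itself could not serve as a check of the labels, since neither of its probes was well above background on the array of pair 1, and the single probe that was on the array of pair 2 gave a log2 ratio of 0.17. Whether these probes lie in the deleted part was not looked up. A member counts as measured in an experiment where, on each of the 2 arrays, at least 1 of its probes stood well above background in either channel, and its brightest such probe represents it. By this measure 8 of the 10 members were measured among 15304 genes on the *Rspo3* KO arrays, and 7 among 15771 genes on the Axin2 arrays. *Notum* was measured in neither, *Sp5* only in the sorted cells, and *Apcdd1* and *Lef1* only in the colon.

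The probes decide which transcripts these values stand for, and stretches of those on which the results turn are shown here. Capitals mark the longest run that a probe shares with the probe of another gene. *Axin2* has 1 probe (mm9, chr11:108811980-108812039), which shares no more than 13 bases with any other gene's probe. *Tcf7* has 2, at chr11:52066114-52066173 and chr11:52066831-52066890, of which the first is the brighter. *Tcf7l1* (chr6:72577222-72577281) and *Tcf7l2* (chr19:56006460-56006519) each have a probe that holds the same 18 bases, the longest run shared between probes of different members. An annotation of mm9 was not used here, so exons and UTRs are not given for these positions. Each line gives 30 bases of a 60-base probe.
Axin2, bases 31 to 60: aaagagttcatttaaAGAAAACTACTTGgt
Tcf7 A_52_P244702, bases 25 to 54: cctgaatCCAAAGAAAACCAAAAggggtta
Tcf7 A_52_P244711, bases 1 to 30: tttTGTTTGCTGTAGgtcagatgggttgga
Tcf7l1 A_51_P156547, bases 10 to 39: agcattATTGGTCAATATTTGACCactctg
Tcf7l2 A_52_P316355, bases 29 to 58: gagttcATTGGTCAATATTTGACCcattct

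Tcf/Lef proteins are known to bind DNA at sites around the letters CTTTGA or CTTTGT. Both were searched on either strand in promoter windows of 300 bases, 250 before to 50 after each annotated start, taken from RefSeq (GRCm38.p6), and matches were allowed to overlap. At least 1 match was present in 31.2% of 32851 promoters. Of 8 members with a promoter in this table, 4 held a match in at least 1 of their promoters, and counted by promoter this was 4 of 14. The matches were 1 each in *Tcf7l1* and *Tcf7l2*, 3 in 1 of the *Lef1* promoters and 5 in the *Sp5* promoter, and 12 promoters of the table (0.0365%) held 5 or more. *Axin2* held none in the window at chr11:108920099-108920398. The *Sp5* window is shown as the member with the most matches, which are in capitals and start at -221, -212, -204, -104 and 42 from the start of the gene. A match is a string of letters and no measured site.
Sp5 promoter, chr2:70474673-70474972, plus strand: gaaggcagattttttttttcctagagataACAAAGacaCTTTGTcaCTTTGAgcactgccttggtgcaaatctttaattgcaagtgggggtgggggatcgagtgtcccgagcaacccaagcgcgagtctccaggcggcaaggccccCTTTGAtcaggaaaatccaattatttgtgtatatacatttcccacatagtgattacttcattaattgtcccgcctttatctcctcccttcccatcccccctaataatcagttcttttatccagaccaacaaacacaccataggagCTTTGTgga

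The members differed in where they were detected. Normalized levels, given as log2 intensity after adjustment across the 4 arrays, are compared only for 1 probe between samples, and the colon and sorted-cell arrays lie on different slides. *Apcdd1*, a membrane-bound inhibitor of Wnt signaling, had levels of 9.56 and 9.11 in *Rspo3* KO colon and 9.02 and 8.84 in control colon. These values rest on 1 of its 2 probes, since the other was above background in no channel. None of the 4 sorted-cell channels was well above background for this probe. On average over 4 channels each, the colon level was at least 7.61-fold higher than the bound that the sorted-cell channels allow, taking in each channel the higher of the probe's own signal and the lowest signal among probes well above background. *Lef1*, a Tcf/Lef factor also known from lymphocytes, had levels of 7.64 and 7.02 in KO colon and 7.96 and 7.44 in control colon and likewise lay above background in no sorted-cell channel, at least 2.66-fold lower by the same bound on its brightest probe and at least 1.63-fold lower on the second. *Nkd1*, which encodes an inhibitor that binds Dishevelled, was above background in all 8 channels, but its brighter probe averaged 10.65 in the colon and 6.81 in sorted cells. The second *Nkd1* probe averaged 7.09 and 6.57, so that the gap between colon and sorted cells was 3.85 on one probe and 0.52 on the other.

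The Tcf/Lef factors with several probes also gave gaps that depended on the probe. The brighter *Tcf7l1* probe, at 13.04 in the colon, stood 3.50 above the sorted cells, and the other 0.38 above. Of the 4 *Tcf7l2* probes, 2 were higher in the colon on average, by 1.44 and 0.22, and the other two lay lower there by differences of -0.87 and -1.24. *Tcf7l2* encodes the Tcf factor best known from intestinal crypts, and the probe with the lowest difference is the one that shares 18 bases with *Tcf7l1*. *Ctnnb1*, which encodes beta-catenin, was high in all 8 channels on its brightest probe, between 12.42 and 13.45, and colon and sorted cells overlapped. *Axin2* also overlapped, with levels from 8.60 to 9.05 in the colon and from 8.57 to 9.97 in sorted cells. *Sp5*, a zinc finger factor induced by Wnt, was above background in all 4 sorted-cell channels and in 1 of 4 colon channels, a control. *Notum*, a secreted enzyme that inactivates Wnt ligands, was above background in no channel.

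**Figure D1:**
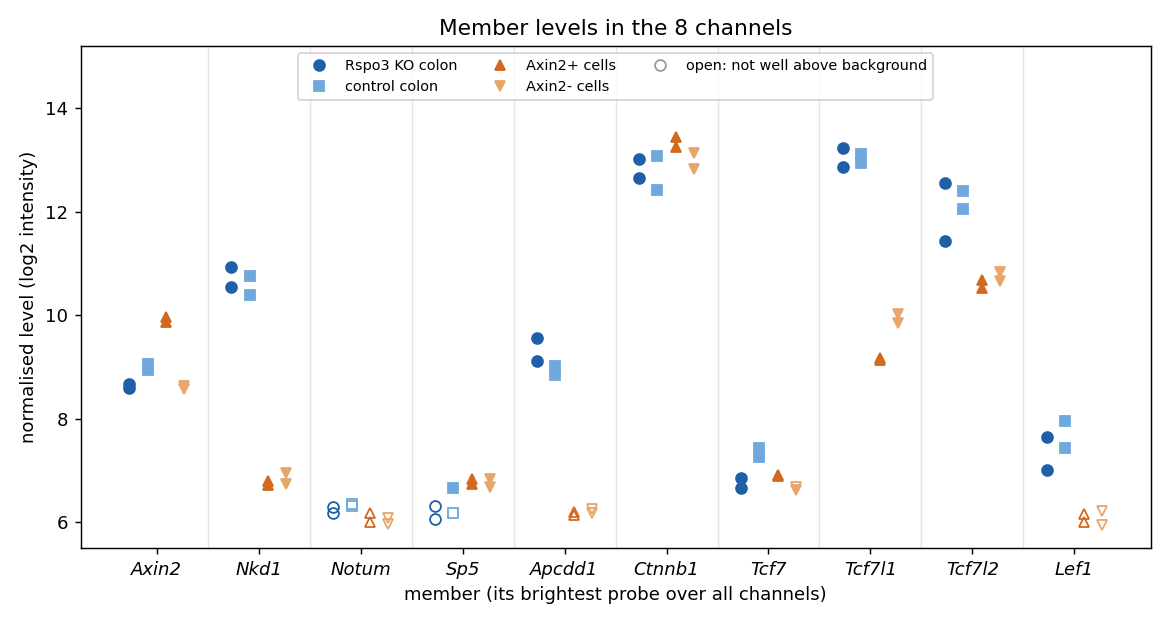
Normalized level (log2 intensity, vertical axis) of the probe of each member that is brightest over all channels, with each point 1 channel and open symbols for channels not well above background. *Notum* is open in all 8 channels and *Apcdd1* and *Lef1* in all 4 of the sorted cells, while the Axin2+ channels of *Axin2* (9.97 and 9.86) stand above all its other channels, of which the highest is at 9.05.

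The first experiment addresses what loss of *Rspo3* from Myh11-expressing cells does to the colon. None of the 8 measured members passed the test, and 3 were lower and 1 higher in both KO mice than in their controls, beside 44.1% of all measured genes with the same direction in both pairs. The test was limma's moderated test of the log2 ratio against 0 with Benjamini-Hochberg adjustment over all 15304 genes, which called 35 genes (0.229%). The adjusted p was 0.9998 for each of the 8 members. At an unadjusted p under 0.05, 1 member (*Tcf7*) would pass, beside 4.62% of all genes. By size, 1 member was past 1.5-fold by its mean with the same direction in both pairs and lower in KO, beside 2.46% of all genes, and 0 were higher, beside 1.86%. The median log2 ratio of the measured members was -0.11, with -0.05 in pair 1 and -0.34 in pair 2, and that of all genes -0.01. The sign of this median was not stable, since it was 0.02 without *Axin2* and 0.0482 when each gene was the mean over its measured probes.

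*Axin2*, a scaffold of the destruction complex and the most widely used reporter of Wnt activity, was lower in both KO mice. Its normalized level was 8.60 in KO against 9.05 in control colon in pair 1, and 8.67 against 8.94 in pair 2. Both KO values lay below both control values, but the share of all measured genes that separate in this way was not counted. The log2 ratio was -0.45 and -0.26, with a mean of -0.36 (SD 0.130, n = 2 pairs, 95% interval by limma -0.89 to 0.18), which corresponds to 1.28-fold lower. The interval includes 0.

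Among the other inhibitors, *Apcdd1* was higher in KO in both pairs, with log2 ratios of 0.54 and 0.27 and a mean of 0.40 (SD 0.194, n = 2 pairs, interval -0.14 to 0.95). The lowest KO value (9.11) lay above the highest control value (9.02), again without a count of such genes among all measured. Fibroblast, smooth muscle and macrophage markers had positive medians as well, of 0.30 over 6, 0.24 over 5 and 0.29 over 5 measured genes, of which 2, 4 and 4 were higher in both pairs. Their summed levels in KO against control colon were 73869 and 83057 against 60929.5 and 66427 for fibroblasts, 82262 and 85082 against 69006 and 82004 for smooth muscle, and 4849 and 4163 against 3684 and 2992 for macrophages. The part of these cells in the *Apcdd1* ratio was not tested. *Nkd1* went opposite ways on its brighter probe, with 0.53 in pair 1 and -0.23 in pair 2, and its KO levels of 10.92 and 10.54 overlapped the control levels of 10.39 and 10.76. Its second probe gave 0.22 and 0.30. *Sp5* and *Notum* have no ratio here, since they were not above background on both arrays.

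*Tcf7*, a Tcf/Lef factor that is both expressed in crypts and long known from T cells, was the member with the lowest mean ratio. Its level was 6.85 in KO against 7.26 in control colon in pair 1, and 6.67 against 7.44 in pair 2. These groups did not overlap, but the share of all genes without overlap was not counted. The log2 ratio was -0.40 and -0.77, with a mean of -0.59 (SD 0.260, n = 2 pairs, interval -1.14 to -0.03), or 1.501-fold lower, just past the 1.5-fold mark of 0.58, and the adjusted p by limma was 0.9998. It was at -0.58 with ratios centered on the median in place of loess, and thus no longer past the mark, and at -1.09 with the log ratio of the extraction software, which is computed without the offset used here. Its second probe gave -0.30 and -0.26. That probe was dim, with levels between 6.27 and 6.62, and not well above background in the KO channel of pair 1. *Lef1* had log2 ratios of -0.32 and -0.42, with a mean of -0.37 (SD 0.0721, n = 2 pairs, interval -0.90 to 0.16), while its second measured probe gave -0.16 and 0.00. KO and control levels of *Lef1* overlapped between the pairs.

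T cells also express *Tcf7* and *Lef1*, and their markers moved in the same direction. Of 8 T cell markers, 4 were measured on these arrays (*Cd2*, *Cd3d*, *Cd3g* and *Lck*), and all 4 were lower in both KO mice, with a median log2 ratio of -0.40. Their summed level was 398 and 469 in KO and 651 and 566 in control colon (linear scale), and *Cd3e*, *Cd4*, *Cd8a* and *Cd247* were not measured. *Lck*, a kinase of the T cell receptor, was past 1.5-fold lower (-0.95 and -0.47), and none of the 4 passed the test. B cell markers were lower as well, 3 of 3 measured past 1.5-fold, beside 2.46% of all genes. Of these 3, *Ms4a1* passed the test (adjusted p by limma 0.0148). The part of lymphocytes in the ratios of *Tcf7* and *Lef1* was not tested.

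The remaining nuclear members had no common direction. *Tcf7l1*, a Tcf factor known mainly as a repressor, had log2 ratios of -0.25 and 0.29, and its second probe 0.03 and 0.38. *Tcf7l2* gave 0.14 and -0.62 on its brightest probe. All of its 4 probes were positive in pair 1, between 0.09 and 0.91, and negative in pair 2, between -0.62 and -0.12, so the mean was negative on 2 probes and positive on the other two. *Ctnnb1* gave 0.60 and -0.43 on its brightest probe, although the array also carries a *Ctnnb1* probe printed in 10 spots, which gave 0.25 in pair 1 (SD over 7 kept spots 0.0492) and 0.19 in pair 2 (SD over 9 kept spots 0.0448). The spread between spots was thus far below the difference between probes of this gene.

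**Figure D2:**
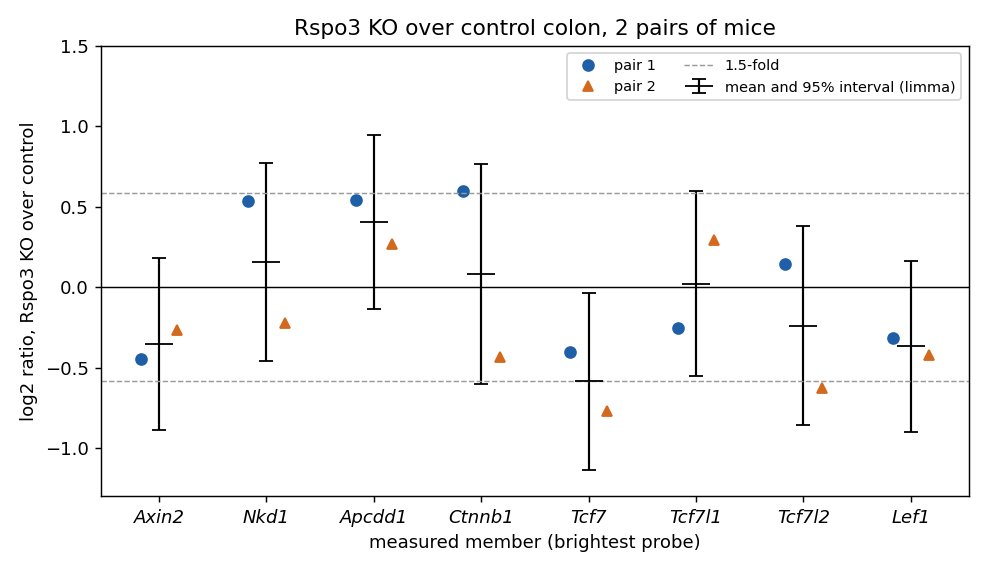
Log2 ratio of *Rspo3* KO over control colon (vertical axis) for the 8 measured members, as points for pair 1 and pair 2, with the mean and its 95% interval by limma as bars and 1.5-fold as dashed lines. The interval excludes 0 only for *Tcf7* (-1.14 to -0.03), before adjustment over all genes, and the pairs lie on opposite sides of 0 for *Nkd1*, *Ctnnb1*, *Tcf7l1* and *Tcf7l2*.

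The other 4 measured members had opposite directions in the 2 pairs. Over all 15304 measured genes, the log2 ratios of the 2 pairs had a Pearson correlation of only 0.030. Between the 2 Axin2 arrays, which hold the same pools, it was 0.925. The pairs differ in mice and in dye orientation at once, which therefore cannot be told apart on these arrays. Single pairs gave other members past 1.5-fold. Without pair 1, *Tcf7* and *Tcf7l2* were past it, both lower, beside 5.61% of all genes. Without pair 2, *Ctnnb1* alone was past it, and higher, beside 8.19% of all genes.

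**Figure D3:**
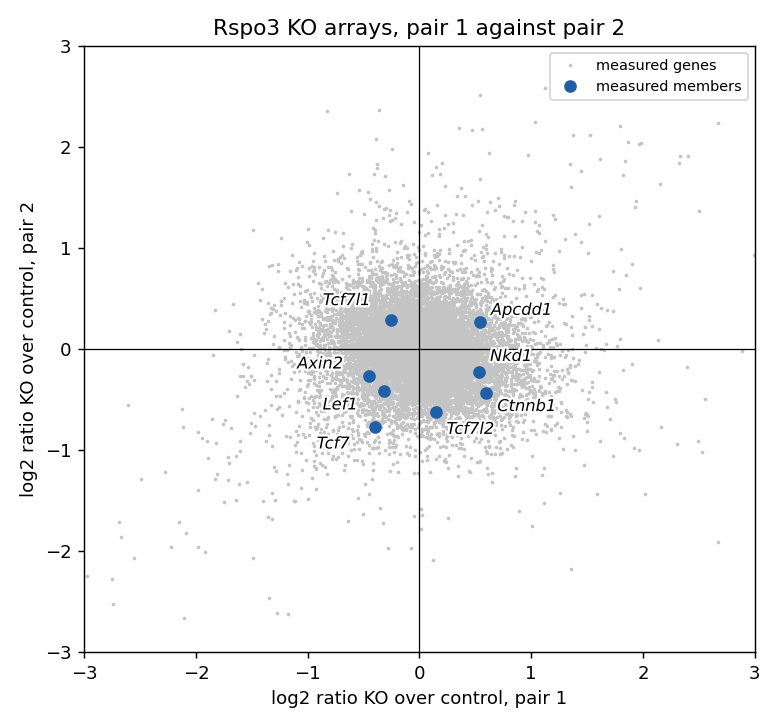
Log2 ratio of KO over control in pair 1 (horizontal axis) against pair 2 (vertical axis) for all measured genes (gray) and the 8 measured members (blue), with 15 genes beyond the axis limits of 3 not drawn. The members lie within the main cloud of genes, 3 in the quadrant lower in both pairs, 1 in the quadrant higher in both and 4 in the others.

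The second experiment compares epithelial cells that carried the tdTomato label, switched on through the *Axin2* promoter after tamoxifen, with those that did not. The Axin2- pool was not free of *Axin2* signal, since the *Axin2* probe was well above background in both Axin2- channels. *Axin2*, the gene that drives the reporter on which cells were sorted, was 2.497-fold higher in Axin2+ cells, with levels of 9.97 and 9.86 against 8.63 and 8.57 and log2 ratios of 1.35 and 1.30 on the 2 arrays. Since the sort used this gene, its ratio is a check of the labels. Of the other 6 measured members, none was past 1.5-fold higher, beside 7.84% of all genes, and 1 was past it lower, beside 6.97%. Of all 7 measured members, 6 had the same direction on both arrays, beside 82.7% of all genes. The median log2 ratio of the 6 without *Axin2* was -0.03, and -0.01 over all genes.

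*Tcf7l1* was the member lower in Axin2+ cells. Its level was 9.17 and 9.13 in Axin2+ cells against 10.01 and 9.84 in Axin2- cells, with log2 ratios of -0.84 and -0.71, or 1.71-fold lower by the mean. The second *Tcf7l1* probe gave -0.23 on both arrays and stayed within 1.5-fold, beside 5.75% of all measured probes that were past it lower, so the size depended on the probe while the direction was shared. With ratios centered on the median in place of loess, the brighter probe was at 0.19 and -1.70, so its signs differed between the arrays. The median of all measured genes then stood at 0.76 and -0.75, and the probe lay below it on each array. Among the markers of other cells, 2 of 6 fibroblast markers were measured in the sorted cells, and both were lower in Axin2+ cells (summed level 247 and 270 against 318 and 334). Of 6 smooth muscle markers 3 were measured, without a common direction (*Acta2* 0.56 and 0.25, *Actg2* 0.27 and -0.10, *Tagln* -0.21 and -0.31), and their summed level was 15098 and 12184 in Axin2+ against 10694 and 10759 in Axin2- cells. All 5 enteroendocrine markers were past 1.5-fold lower in Axin2+ cells, beside 6.97% of all genes, with a median log2 ratio of -2.58. Of 5 goblet cell markers 4 were lower on both arrays and 3 past 1.5-fold (*Clca1*, *Fcgbp* and *Tff3*), with a median of -1.18 over all 5, while *Muc2* was at 0.30 and 0.34. The part of these cells in the *Tcf7l1* ratio was not tested.

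On its brighter probe, *Tcf7* had levels of 6.90 and 6.92 in Axin2+ cells against 6.68 and 6.62 in Axin2- cells, with log2 ratios of 0.21 and 0.29. It was near background in these cells, not above it in the Axin2- channel of array 1, and its ratio depended on how dim signals are treated, at 0.25 here and at 0.98 with the log ratio of the extraction software, which is past 1.5-fold. With the software log ratio, 2684 of 15771 measured genes were past it higher on these arrays. The second *Tcf7* probe gave -0.02 on both arrays. *Sp5* gave 0.00 and 0.05, and *Nkd1* -0.02 and -0.15, with -0.08 and -0.22 on its second probe. These signals were dim, with levels between 6.69 and 6.96 on the *Sp5* and the brighter *Nkd1* probe and between 6.44 and 6.67 on the second *Nkd1* probe. With the software log ratio the second *Nkd1* probe was at -0.78 and -0.66, past 1.5-fold lower, and the brighter one at 0.06 and -0.63. Counted by gene, 2438 of 15771 were past it lower with that ratio.

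*Ctnnb1* was higher in Axin2+ cells on both arrays with each of its 3 probes, by different amounts. Its brightest probe gave 0.61 and 0.11, the probe printed in 10 spots 0.41 and 0.16, and the third, which lies upstream of the others (chr9:120865275-120865334), 0.69 and 0.79. By its mean, only the third was past 1.5-fold, beside 6.99% of all measured probes that were past it higher. With ratios centered on the median in place of loess, the brightest *Ctnnb1* probe was at 1.62 and -1.44, and its shared direction was lost. The median of all measured genes then stood at 0.76 and -0.75. *Tcf7l2* had 0.04 and -0.31 on its brightest probe and means between -0.24 and 0.16 over its 4 probes. *Apcdd1*, *Lef1* and *Notum* were not well above background in either pool, so no ratio is given.

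**Figure D4:**
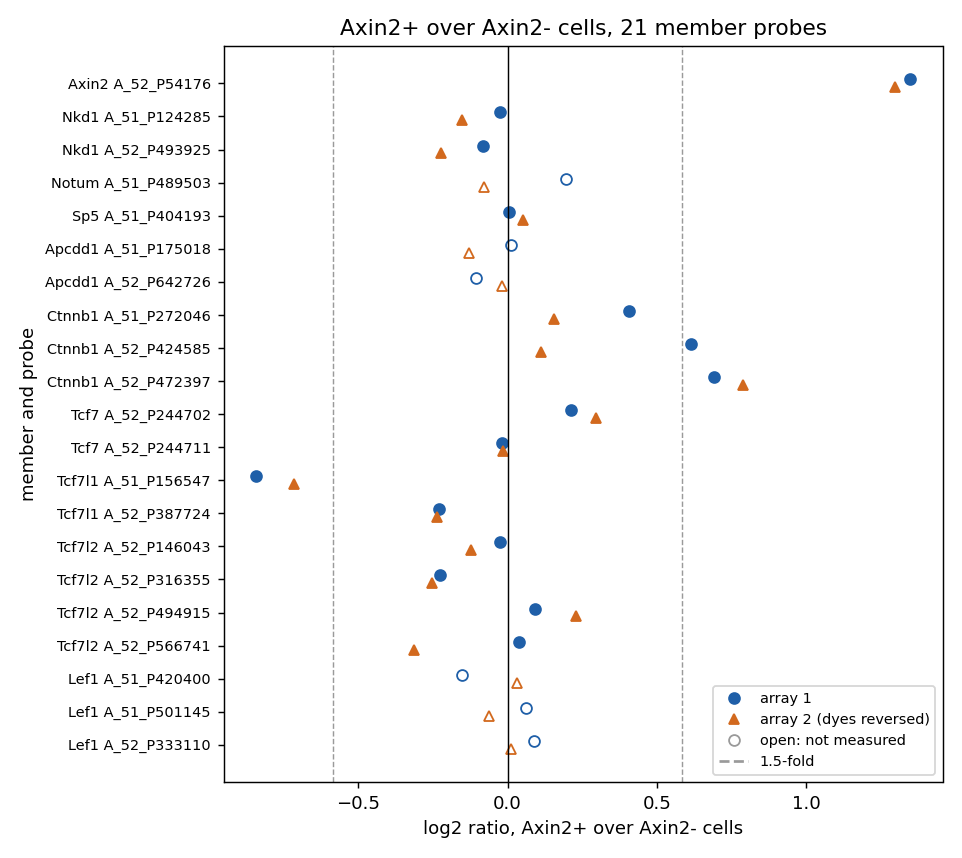
Log2 ratio of Axin2+ over Axin2- cells (horizontal axis) for each of the 21 member probes (vertical axis), as 1 point per array, open where the probe was not measured, with 1.5-fold as dashed lines. *Axin2* (1.35 and 1.30) and 1 *Ctnnb1* probe (0.69 and 0.79) lie past 1.5-fold higher on both arrays, and 1 *Tcf7l1* probe (-0.84 and -0.71) lower.

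The sorted pools differed widely in markers of cell state, against which the members' ratios can be set. Of 6 cycling cell markers, all 6 had positive ratios on both arrays and 5 were past 1.5-fold higher, beside 7.84% of all genes. Of 6 surface colonocyte markers all 6 were lower and 5 past it, beside 6.97% of all genes. Epithelial markers differed less, with a median of -0.11 over 7 genes, although *Krt8* and *Krt19* were past 1.5-fold lower. The genes whose pattern was nearest to that of *Axin2*, by Euclidean distance over the 4 log2 ratios among 13562 genes measured in both experiments, were *Firre*, *Hmgn1*, *Srek1*, *2210016H18Rik* and *Top2a* (distances 0.196 to 0.291). The nearest member, *Tcf7*, ranked 2994 on this list, and *Tcf7l1* ranked 12804. *Notum*, *Sp5*, *Apcdd1* and *Lef1* were not measured in both experiments and have no rank. The distance includes the ratios of *Axin2* in the sorted cells, which follow from the sort. It also includes the dim ratio of *Tcf7* there, which the offset pulls toward 0.

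Other genes of the pathway were grouped into 3 lists. Of 18 other Wnt target genes of the gut epithelium, 17 were measured on the *Rspo3* KO arrays, with a median of -0.11. By their mean with a shared direction in both pairs, 0 were past 1.5-fold higher in KO, beside 1.86% of all genes. Past it lower were 6, beside 2.46% of all genes. These 6 were *Lgr5*, the R-spondin receptor of crypt base stem cells (-1.28 and -2.61), *Ephb3*, a receptor that positions crypt cells (-1.61 and -1.01), *Cdca7* (-1.32 and -0.95), *Rnf43*, a ligase that removes Frizzled (-0.63 and -0.73), *Tnfrsf19* (-0.82 and -0.52) and *Ascl2*, a stem cell transcription factor (-0.47 and -0.76). None passed the test, with an adjusted p by limma of 0.104 for *Lgr5*. The list was chosen with results of these arrays known and is not independent evidence of its direction.

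On the Axin2 arrays, 15 of these targets were measured, with a median of 0.69. In Axin2+ cells 0 were past 1.5-fold lower, beside 6.97% of all genes, and 9 were past it higher, beside 7.84%. Here too the list was chosen with earlier results of these data known and is not independent evidence of its direction. *Lgr5* was at 1.497 and 1.559, *Cd44*, a surface glycoprotein of crypt cells, at 1.31 and 1.51, *Rnf43* at 1.14 and 1.26 and *Cdca7* at 1.203 and 0.938. *Ephb3* (1.096 and 0.991), the crypt factors *Sox4* (1.04 and 0.80) and *Sox9* (0.65 and 0.73), *Tiam1* (0.92 and 0.75) and the cyclin gene *Ccnd1* (0.70 and 0.61) made up the rest. *Nkd1* and *Sp5*, measured in the same cells, were between -0.22 and 0.05 over their 3 probes, with the software log ratios of *Nkd1* given above. These 3 probes were dim in the sorted cells, at levels between 6.44 and 6.96, where the offset pulls ratios toward 0. A change in these 2 genes could therefore be missed here.

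The destruction complex and its regulators, which control the stability of beta-catenin, showed no gene past 1.5-fold on the *Rspo3* KO arrays among 17 of 18 measured, with a median of -0.03. In Axin2+ cells 3 of 18 were past it higher, beside 7.84% of all genes, with a median of 0.20. They were the casein kinase gene *Csnk1e* (0.67 and 0.71), the tankyrase gene *Tnks2* (0.94 and 0.40) and the deubiquitinase gene *Usp34* (0.80 and 0.99). Of the nuclear partners of beta-catenin and Tcf/Lef, 19 of 20 were measured and none was past 1.5-fold on the *Rspo3* KO arrays, with a median of -0.04. In Axin2+ cells 2 of 19 were past it higher, near the 7.84% of all genes. They were the beta-catenin adaptor gene *Bcl9* (0.72 and 0.79) and the acetyltransferase gene *Crebbp* (0.58 and 0.75). On the *Rspo3* KO arrays, 1.86% of all genes were past 1.5-fold higher and 2.46% lower.

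**Figure D5:**
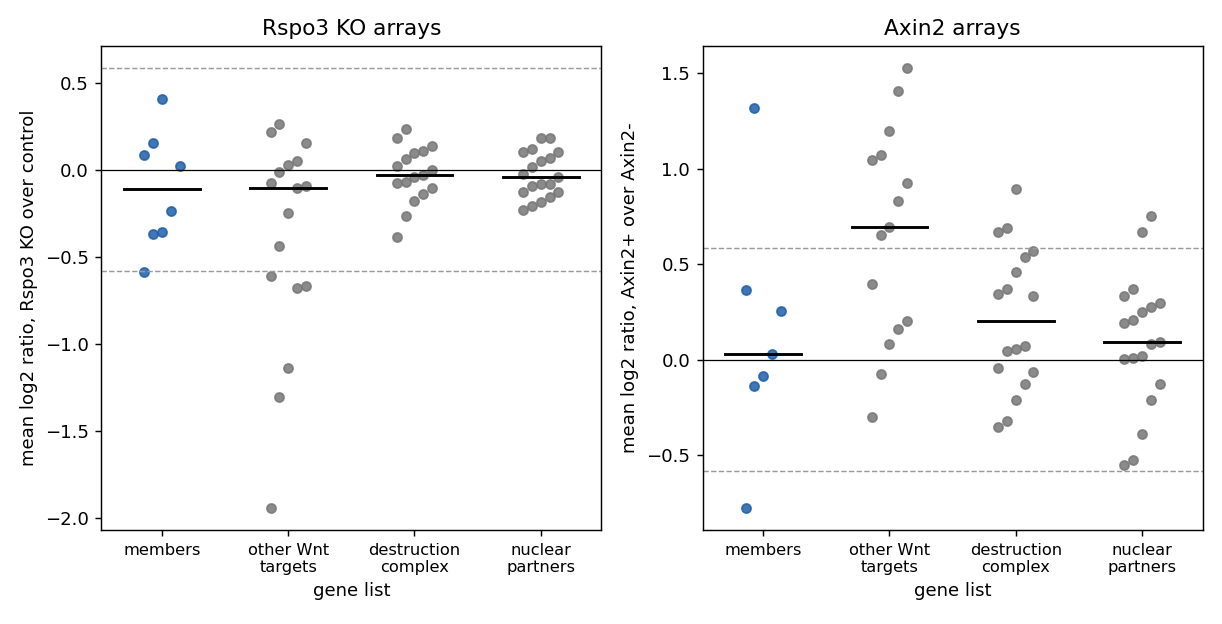
Mean log2 ratio (vertical axis) of each measured gene, for the members (blue) and 3 other pathway lists (gray), on the *Rspo3* KO arrays (left) and the Axin2 arrays (right), with the median of each list as a bar and 1.5-fold as dashed lines. The other Wnt targets reach from 6 genes past 1.5-fold lower in KO to 9 past it higher in Axin2+ cells, while 1 member is past it in KO (*Tcf7*) and 2 in Axin2+ cells (*Axin2* and *Tcf7l1*). Of all genes, 2.46% were past it lower and 1.86% higher in KO. In Axin2+ cells these shares were 6.97% lower and 7.84% higher. The cells were sorted on *Axin2*, and the lists were chosen with earlier results of these data known.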

How the data were processed

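Groups and dye directions came from the labels, and the members and gene lists were chosen with earlier results of these data known. The authors scanned the arrays and ran Agilent Feature Extraction (version 11.5.1.1 per the file headers). They deposited, for each spot, mean signal intensity and background intensity per dye and a log10 ratio of Cy5 over Cy3, which the series' value table repeats. In the published methods, ratio profiles were combined with error weights, which an alternative approximates. Here, intensities were background-corrected with limma (version 3.58.1, R version 4.3.3) by normexp with an offset of 50, with 66 spots on the array of pair 1 and 6 on that of pair 2 whose background was not uniform kept out of the fit, and log2 ratios were normalized by loess within each array. The offset pulls ratios of dim genes toward 0. Control and outlier spots were left out, and spots of a probe were averaged. Levels are loess values scaled by Aquantile across arrays. Of 41174 probes, 27887 took their name from RefSeq (GRCm38.p6) through an accession, 5963 through a symbol and 491 through a synonym, whereas 6833 kept that in the files. On the Axin2 arrays 3 member probes carry a transcript identifier and were kept as members through the other files. *Rspo3* KO ratios were tested with limma (lmFit and eBayes, 1 residual and 6.70 prior degrees of freedom). The procedure was also run on simulated data, with planted changes larger than those of any member and the same noise level in all genes. That run does not show how the test performs for ratios of the members' size. Named genes were all members, listed pathway genes past 1.5-fold by their mean with the same sign on both arrays, cell type markers, *Rspo3* and the 5 genes nearest to *Axin2*. The number of arrays limits the precision.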

Additional observations from a re-analysis of the deposited data

How the results depend on the processing

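The count of members past the adjusted p was 0 under each alternative that gave a test. The 1 member past 1.5-fold on the *Rspo3* KO arrays became 0 with the background fitted to all spots, with median centering, with the mean over measured probes, with a 2-fold mark and with 1.5-fold required on each array, and was between 1 and 2 with either pair left out. The 2 members past it on the Axin2 arrays became 1 with median centering, with the mean over measured probes and with a 2-fold mark, and 3 with the software log ratio, with the series value table and without array 2. Of all 15771 measured genes, 2336 were past it in the main setting. This count was 1077 with median centering, 1901 with the mean over measured probes and 666 with a 2-fold mark. It was 5122 with the software log ratio and with the series value table, and 2373 without array 2. The member median on the *Rspo3* KO arrays ran from -0.34 to -0.0531 with either pair left out and turned to 0.0482 with the mean over measured probes. The median on the Axin2 arrays (0.03) moved to 0.0463 with an offset of 16, 0.0607 without background correction, 0.18 with the software log ratio and with the series value table, 0.0846 with median centering, -0.0157 without a filter on dim probes and -0.0306 with a filter on both channels, and ran from 0.0370 to 0.0511 with either array left out. On the *Rspo3* KO arrays the mean turned sign for *Tcf7l1* with the background fitted to all spots (-7.24e-05), for *Tcf7l2* with the mean over probes (0.0435) and on 2 of its probes alone (0.19 and 0.31), and for *Ctnnb1* on 1 probe alone (-0.14). It also turned without pair 1 for *Nkd1* (-0.23) and *Ctnnb1* (-0.43) and without pair 2 for *Tcf7l1* (-0.25) and *Tcf7l2* (0.14). On the Axin2 arrays it turned for *Tcf7l2* without array 2 (0.04) and on 1 probe alone (0.16), and for *Tcf7* on 1 probe alone (-0.02). With median centering, the median of all measured genes stood at 0.55 and -0.52 on the *Rspo3* KO arrays and at 0.76 and -0.75 on the Axin2 arrays, and *Axin2* at 0.22 and -0.82, *Lef1* at 0.18 and -0.72 and *Apcdd1* at 1.25 and -0.30 in the pairs. The mean kept its sign for *Axin2* (-0.45 to -0.21), *Tcf7* (-1.10 to -0.28), *Lef1* (-0.52 to -0.08) and *Apcdd1* (0.27 to 0.54). Filter choice and 4-array fits left it unchanged. The causes were not tested.

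Over all genes, the 35 called on the *Rspo3* KO arrays became 1 with the background fitted to all spots, 7 with median centering, 3 with the mean over probes and 0 without a filter, and 123 with an offset of 16, 69 without background correction, 113 with the software log ratio and with the series value table, 58 in a fit over 4 arrays and 279 with a dye term in it. Past 1.5-fold alike, 660 genes became 357 with the background fitted to all spots, 1461 with the software log ratio and 1363 with error weights, and 2336 on the Axin2 arrays became 5122 and, with median centering, 1077. A 2-fold mark left 181 and 666, and 1.5-fold on each array left 306 on the *Rspo3* KO arrays. No paired analysis was possible because a replicate block needs numbers shared between groups of samples, and the experiments hold different mice. The test on the *Rspo3* KO arrays is within pairs as it stands, since each array compares the mice of 1 pair. Signal over background limits *Notum* in all samples, *Sp5* in the colon and *Apcdd1* and *Lef1* in the sorted cells.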
